A study of Caenorhabditis elegans with 6 samples.

Results

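The genes described here are the nuclear hormone receptor genes of Caenorhabditis elegans that carry an nhr-number name, measured in RNA of PVD and OLL neurons and in RNA of whole larvae. They were chosen by name from the probe sets that carry a single gene symbol, with 1 probe set per gene, the one with the highest mean over 6 arrays. nhr-23, nhr-25, nhr-41 and nhr-85 were left out by the same rule. This gave 250 genes of the 17118 with a probe set of their own. A RefSeq gene table lists 283 nhr-number genes, of which 29 had no single-name probe set, nhr-62 among them. The rule took genes by name and used measured values only to pick the probe set of each gene. It was set with earlier results of these data known.

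Nuclear hormone receptors are transcription factors with a zinc-finger domain that binds DNA and, in most members, a domain that can bind small lipophilic molecules such as sterols and fatty acids. The family is greatly expanded in nematodes, chiefly through genes related to the vertebrate receptor HNF4, and most members have no known ligand. Those that have been studied in C. elegans regulate fat storage, breakdown of nutrients, responses to toxins, molting and the fate of single cells, often from the intestine and the hypodermis. PVD neurons are branched nociceptors of the body wall, and OLL neurons serve sensation in the head.

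The PVD and OLL group was poly(A) RNA pulled down with the poly(A) binding protein PAB-1, which carried a 3X FLAG tag and was made under the ser-2prom3B promoter. The whole animal group was total RNA from lysates of entire animals. Both came from L3/L4 larvae kept at 25 °C on E. coli Na22, and both were amplified with NuGEN WT-Pico before hybridisation to Affymetrix C. elegans arrays, with 3 arrays per group. Tissue and type of RNA changed together between the groups and cannot be told apart, nor can a smaller number of cells of a type be told from less RNA per cell. The titles name biological replicates for the PVD and OLL group only, so p-values reflect only how these samples differ, which can be technical.

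Signals are the authors' RMA values, taken as log2, and a difference is PVD and OLL minus whole animal on that scale, with its moderated standard error (SE) from limma. A gene was called at a Benjamini-Hochberg adjusted p under 0.05 over all 22548 probe sets tested. The no-target background was the 95th percentile of 32 probe sets against bacterial and yeast control RNAs. It was 2.28 to 2.44 for the PVD and OLL group and 2.95 to 3.43 for whole animals. Replicate 3 stood apart in each group. It correlated at 0.954 and 0.961 with the other PVD and OLL arrays, which correlated at 0.988 with each other. In the whole animal group it correlated at 0.938 and 0.940 with the other arrays, against 0.973 between those. Of the markers of the targeted cells, deg-3 and des-2, which encode acetylcholine receptor subunits of PVD, were 4.27 ± 0.38 and 4.09 ± 0.23 higher (adjusted p = 0.00402 and 0.00205). The PVD markers F49H12.4 (0.03 ± 0.23, adjusted p = 0.945) and ser-2 (0.72 ± 0.35, adjusted p = 0.202) were not called. Both exceeded background on 0 whole animal arrays, so the size of their differences is uncertain.

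Of the 250 receptor genes, 36 rose in the PVD and OLL RNA, 3 fell and 211 were not called. The rises were 14.4% of the receptor genes, against 8.1% of all genes called higher, and the falls 1.2%, against 4.66% of all genes called lower. Over all probe sets, with several for some genes, 9.31% were higher and 4.28% lower. The median difference was 0.10 for the receptor genes and -0.07 for all genes. The lower and upper quartiles were -0.31 and 0.72 for the receptor genes and -0.42 and 0.42 for all genes. At an unadjusted p under 0.05, 70 receptor genes were higher and 24 lower, where 16.8% of all genes were higher and 14.7% lower.

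The fitted differences of the rises ranged from 0.73 to 2.58. In 8 of them no whole animal array exceeded the no-target background, so their fold is given only as a lower bound, or not at all for nhr-161. With those at their bound, 28 rises were of at least 2-fold and 3 of at least 4-fold. In all 36 genes every PVD and OLL array exceeded every whole animal array. Including genes that were not called, the arrays of the groups did not overlap for 71 receptor genes in the upward direction (28.4%, against 18.4% of all genes) and for 45 in the downward direction (18.0%, against 21.9%). The number of rises was 16 without PVD and OLL replicate 1, 13 without replicate 2 and 36 without replicate 3. These were 6.4%, 5.2% and 14.4% of the receptor genes, against 3.19%, 2.16% and 7.62% of all genes. Of the 36 rises without replicate 3, 27 were among the 36 called with all arrays. Rises numbered 19, 18 and 31 without whole animal replicates 1, 2 and 3, and 56 without replicate 3 of both groups. Of all genes, 4.69%, 4.20%, 7.97% and 13.5% were called higher in these runs, against 8.1% with all arrays. The 56 rises were 22.4% of the receptor genes, so their number grew along with that of all genes. Under 4 other scalings of the arrays 17 of the 36 kept their call each time, and 11 of these also kept it in each of the 6 runs with 1 array left out. All 36 differences stayed positive, as centring on bioB and bioC would make them, since it shifted the median of all probe sets by 1.24. That centring also kept all 36 calls and called 155 receptor genes higher, so it is no test of a rise.

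**Figure D1:**
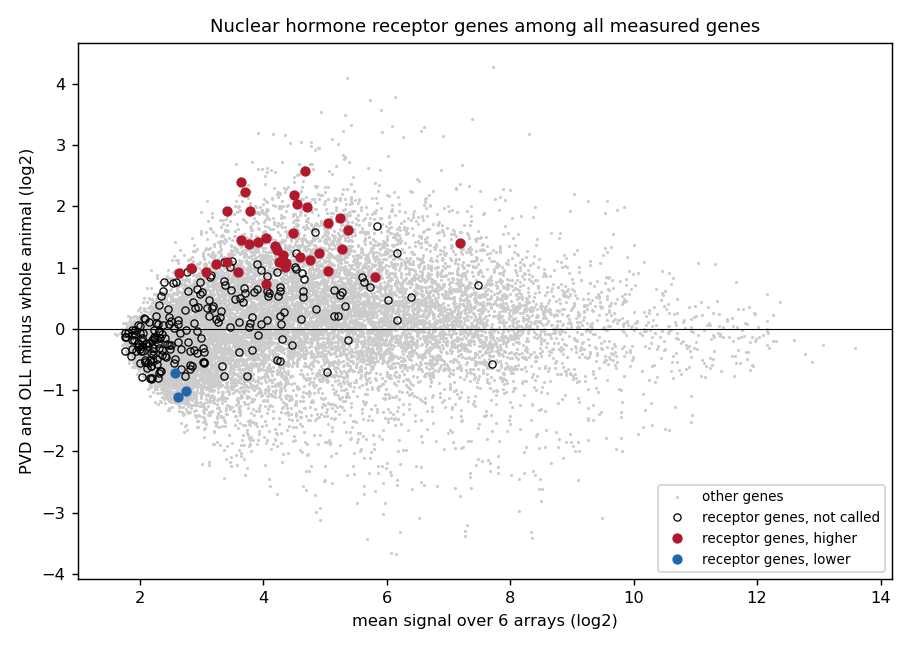
Difference between groups (PVD and OLL minus whole animal, log2) against the mean signal over 6 arrays (log2) for each gene. Small grey points are other genes, open circles the 211 receptor genes that were not called, red points the 36 that rose and blue points the 3 that fell. The 3 falls lie at low signal, and the rises range from 0.73 to 2.58.

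Many of the receptor genes gave signals near background, and the count above it differed between the groups. Between 160 and 171 of the 250 exceeded the background per PVD and OLL array, and between 78 and 118 per whole animal array. 145 exceeded it on all 3 PVD and OLL arrays (58.0%, against 66.6% of all genes), and 69 on all 3 whole animal arrays (27.6%, against 49.9%). These 69 exceeded it on all 6 arrays (49.2% of all genes did), and 61 receptor genes did so on none (24.4%, against 17.3% of all genes). Another 26 did so on 3 PVD and OLL arrays but on 0 whole animal arrays (10.4%, against 4.56% of all genes), and 0 showed the opposite pattern, against 0.0351% of all genes. The background itself was higher on the whole animal arrays; its part in these counts was not tested. All 36 genes that rose were above background on every PVD and OLL array, and 8 of these on 0 whole animal arrays. Of 11 receptor genes annotated as pseudogenes, 3 exceeded background on 3 PVD and OLL arrays.

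The rises are taken in the order of their fitted differences, which is no exact rank where whole animal signals lay below background. Signals of nhr-202 were 6.05, 6.27 and 5.59 on the PVD and OLL arrays, against 3.60, 3.02 and 3.53 on the whole animal arrays, of which 2 exceeded background. Every PVD and OLL array was above every whole animal array, and the group means differed by 2.58 ± 0.26 (5.99-fold, n = 3 arrays per group, limma adjusted p = 0.00439). Signals of nhr-101 were 4.48, 4.31 and 5.73 on the PVD and OLL arrays, against 2.27, 2.59 and 2.48 on the whole animal arrays. It was not above background in whole animals and was at least 3.21-fold higher in the PVD and OLL RNA (adjusted p = 0.00948), with replicate 3 the highest. Signals of nhr-98 were 5.08, 4.88 and 4.51 in the PVD and OLL RNA, against 2.45, 2.47 and 2.83 in whole animals, where again no array exceeded background. That rise was of at least 3.17-fold (adjusted p = 0.00439). A second probe set of nhr-98, with means of 2.35 in PVD and OLL RNA and 1.87 in whole animals, differed by 0.48 (adjusted p = 0.39).

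nhr-71 read 5.63, 5.10 and 6.03 on the PVD and OLL arrays, against 3.30, 3.60 and 3.31 on the whole animal arrays. It rose by 2.18 ± 0.27 (4.55-fold, adjusted p = 0.00544), and its other probe set rose by 2.13 (adjusted p = 0.015). Both probe sets of this gene therefore gave the same call. nhr-107 read 5.58, 5.64 and 5.46 in PVD and OLL RNA and 4.21, 3.29 and 3.07 in whole animals (2 arrays above background), a rise of 2.04 ± 0.31 (adjusted p = 0.0089). Its other probe set, with means of 2.44 in PVD and OLL RNA and 2.72 in whole animals, differed by -0.29 (adjusted p = 0.45). The probe set that rose ends in _s_at and can match several transcripts, so the rise is uncertain for this single gene. The same holds for nhr-110, which read 5.61, 6.01 and 5.49 on the PVD and OLL arrays, against 3.79, 3.84 and 3.50 on the whole animal arrays. It rose by 1.99 ± 0.22 (3.97-fold, adjusted p = 0.00456), while its other probe set differed by 0.31 (adjusted p = 0.335).

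nhr-178 read 4.38, 4.13 and 4.65 in the PVD and OLL RNA, against 2.43, 2.04 and 2.89 in whole animals, where it was not above background. The difference was of at least 2.34-fold (adjusted p = 0.00727). nhr-201 read 4.83, 4.56 and 4.85 on the PVD and OLL arrays, against 2.20, 3.47 and 2.82 on the whole animal arrays, with a fitted rise of 1.92 ± 0.32 (adjusted p = 0.0116). Of the whole animal arrays 1 exceeded background, so the size of this rise is uncertain. The whole animal arrays of this gene were spread more widely than its PVD and OLL arrays. nhr-34 read 6.06, 5.99 and 6.40 in PVD and OLL RNA and 4.5, 3.99 and 4.51 in whole animals. It rose by 1.82 ± 0.23 (3.52-fold, adjusted p = 0.00604), although its other probe set differed by 0.47 (adjusted p = 0.348). nhr-4 read 6.49, 5.98 and 6.08 on the PVD and OLL arrays against 4.42, 4.60 and 4.71 on the whole animal arrays, a rise of 1.61 ± 0.21 (3.05-fold, adjusted p = 0.00653). With nhr-66, described below, these genes are the 11 rises whose calls held with any 1 array left out and under the 4 other scalings. Among those scalings, centring on bioB and bioC is no test of a rise.

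**Figure D2:**
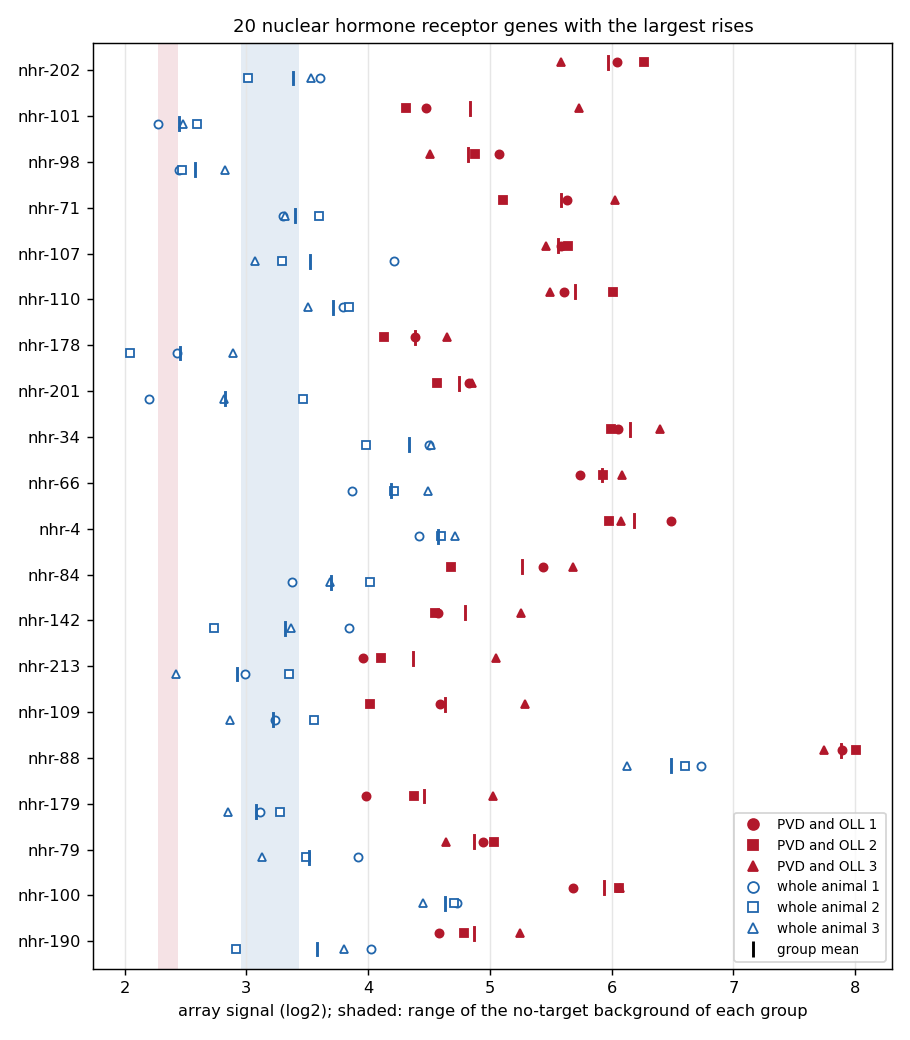
Signal on each array (log2) for the 20 receptor genes with the largest fitted rises, with filled red symbols for the PVD and OLL arrays above open blue symbols for the whole animal arrays and a bar at each group mean. Shaded bands span the no-target background, 2.28 to 2.44 for the PVD and OLL arrays (red) and 2.95 to 3.43 for the whole animal arrays (blue). In each gene the 3 PVD and OLL arrays lie to the right of the 3 whole animal arrays.

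The next 9 rises, from 1.57 to 1.29, depended more on single arrays. nhr-88 read 7.90, 8.01 and 7.74 on the PVD and OLL arrays, against 6.74, 6.60 and 6.12 on the whole animal arrays, a rise of 1.40 ± 0.23 (2.63-fold, adjusted p = 0.0102). Of its 3 other probe sets, 2 rose, by 1.22 and 1.42, and 1 differed by 0.10 (adjusted p = 0.894). nhr-100, at 5.69, 6.06 and 6.07 in PVD and OLL RNA and 4.73, 4.71 and 4.45 in whole animals, rose by 1.31 ± 0.21 (adjusted p = 0.00953). Each of these lost its call in 1 of the 6 runs with an array left out, at adjusted p = 0.0549 for nhr-88 and 0.0536 for nhr-100. nhr-84 (1.57 ± 0.31, adjusted p = 0.0191) lost its call in 2 runs, and nhr-179 (1.38 ± 0.29, adjusted p = 0.0235) and nhr-79 (1.36 ± 0.25, adjusted p = 0.016) in 3. nhr-142 (1.48 ± 0.34, adjusted p = 0.0293) lost it in 5 runs, as did nhr-109 (1.42 ± 0.35, adjusted p = 0.0377), with -0.22 on its other probe set (adjusted p = 0.751). nhr-213, at least 2.32-fold higher (adjusted p = 0.0384), and nhr-190 (1.29 ± 0.33, adjusted p = 0.0427) lost it in 6 of 6. The highest adjusted p in such runs was 0.0926 for nhr-213 and 0.121 for nhr-190. In nhr-84, nhr-142, nhr-213, nhr-109, nhr-179 and nhr-190 the highest signal was on PVD and OLL replicate 3. Whole animal signals exceeded background on 2 arrays for nhr-142, nhr-109 and nhr-190 and on 1 for nhr-179. Of these 9 genes nhr-88, nhr-79 and nhr-100 kept their call under the 4 scalings and the other 6 lost it under cyclic loess, at adjusted p = 0.0598 for nhr-84 and 0.0626 for nhr-179. The remaining 16 rises, nhr-91, nhr-6 and nhr-68 among them, lay between 0.73 and 1.24. Of all 36 rises 11 were measured by probe sets ending in _s_at or _x_at, as were 28 of the 250 receptor genes. Of 30 receptor genes with several probe sets 14 were called, and in 4 of these every probe set was called the same way. A further 4 were called only on a probe set that was not used here.

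The 3 genes that fell were all near background. nhr-2, which acts in early embryos, read 1.91, 1.98 and 2.32 on the PVD and OLL arrays, below background on each, and 2.69, 3.50 and 3.36 on the whole animal arrays, of which 2 exceeded it. It was at least 1.74-fold lower in the PVD and OLL RNA (adjusted p = 0.0343), and its 3 other probe sets, also dim, differed by -0.81, -0.49 and -0.35 (adjusted p = 0.0601, 0.33 and 0.3). nhr-288 read 2.28, 2.28 and 2.19 in PVD and OLL RNA and 3.55, 3.12 and 3.13 in whole animals, at least 1.84-fold lower (adjusted p = 0.0195). nhr-81 read 2.30, 2.17 and 2.15 in PVD and OLL RNA and 3.09, 2.74 and 2.97 in whole animals, at least 1.46-fold lower (adjusted p = 0.0442). The calls were lost in 4, 3 and 6 of the 6 runs with an array left out for nhr-2, nhr-288 and nhr-81, and with arrays centred on the bioB and bioC controls their differences turned positive, at 0.13, 0.22 and 0.52.

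Among 6 receptors that belong to subfamilies shared with other animals, 2 rose and 0 fell, with a median difference of 0.42. nhr-6, the worm counterpart of the NR4A receptors and needed to form the spermatheca, read 4.91, 5.22 and 4.57 on the PVD and OLL arrays, against 4.0, 4.02 and 3.48 on the whole animal arrays. It rose by 1.07 ± 0.25 (2.10-fold, adjusted p = 0.0335), and lost its call in 5 of 6 runs with an array left out, at adjusted p up to 0.126, and under 3 of the 4 scalings, at 0.0527 with median centring, 0.121 after quantile normalization and 0.114 after cyclic loess. nhr-91, related to the vertebrate germ cell nuclear factor, rose by 1.24 ± 0.27 (adjusted p = 0.0255), with 5.82, 5.37 and 5.37 in the PVD and OLL RNA and 4.31, 4.69 and 3.85 in whole animals, and lost its call in 3 such runs and after quantile normalization (adjusted p = 0.115) and cyclic loess (adjusted p = 0.102). The remaining 4 were not called. nhr-48, a relative of the vitamin D receptor and of DAF-12, differed by 0.69 ± 0.30 (adjusted p = 0.156), and its lowest PVD and OLL array, 5.50, lay within the whole animal range of 5.06 to 5.58. nhr-8, which acts in cholesterol balance and in resistance to toxins, was measured well above background at 6.52, 6.11 and 6.08 in the PVD and OLL RNA and 6.30, 5.91 and 6.07 in whole animals, with overlapping groups and a difference of 0.14 ± 0.22 (adjusted p = 0.67). nhr-67, the worm counterpart of Tailless, and nhr-111 exceeded background on 1 PVD and OLL array each and differed by -0.24 ± 0.23 (adjusted p = 0.49) and -0.09 ± 0.33 (adjusted p = 0.869).

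The receptors of fat metabolism had a median difference of 0.72, and 1 of the 7 measured rose. That gene was nhr-66, which encodes a partner of NHR-49 in lipid metabolism. It read 5.74, 5.93 and 6.09 on the PVD and OLL arrays, against 3.87, 4.21 and 4.49 on the whole animal arrays, and rose by 1.73 ± 0.23 (3.31-fold, adjusted p = 0.00633). Its other probe set also rose, by 1.35 (adjusted p = 0.0114). nhr-49, a regulator of fat use in fasting, read 8.14, 7.88 and 7.49 in the PVD and OLL RNA and 6.95, 7.33 and 7.07 in whole animals. The groups did not overlap, but the difference of 0.72 ± 0.23 missed the threshold (adjusted p = 0.0807), as did the 0.96 of its other probe set (adjusted p = 0.185). nhr-80, which acts with it on fatty acid desaturation, read 6.05, 6.14 and 5.86 in the PVD and OLL RNA and 4.84, 5.51 and 5.18 in whole animals, again without overlap, and just missed the threshold (0.84 ± 0.23, adjusted p = 0.0507). nhr-13, another partner of NHR-49, was dim in both groups (0.13 ± 0.19, adjusted p = 0.657). nhr-64 varied widely within both groups, at 3.94, 5.01 and 5.11 on the PVD and OLL arrays, against 3.88, 2.58 and 4.81 on the whole animal arrays (0.93 ± 0.57, adjusted p = 0.29). nhr-76, which acts in fat loss driven by serotonin, differed by 0.48 ± 0.26 (adjusted p = 0.237) and by -0.58 (adjusted p = 0.18) on its other probe set. nhr-69, an HNF4-like gene, differed by -0.18 ± 0.21 (adjusted p = 0.562).

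Among 4 receptors of propionate, methionine and iron metabolism, 1 rose and 0 fell, with a median difference of 0.91. nhr-68, which with nhr-10 switches on the propionate breakdown genes, read 4.07, 3.91 and 3.30 in the PVD and OLL RNA and 2.65, 2.87 and 2.58 in whole animals, where no array exceeded background. It was at least 1.52-fold higher (adjusted p = 0.0335) but lost its call in 5 of 6 runs with an array left out, and nhr-10 differed by 0.44 ± 0.25 (adjusted p = 0.267). nhr-114, which acts in tryptophan and methionine metabolism, read 6.68, 6.92 and 6.73 on the PVD and OLL arrays, against 5.81, 6.16 and 4.66 on the whole animal arrays. Whole animal replicate 3 lay far below the other arrays of that gene, and the difference of 1.24 ± 0.37 was not called (adjusted p = 0.0674). nhr-14, which acts in iron uptake, showed the same low whole animal replicate 3 (5.64, 6.42 and 6.01 in the PVD and OLL RNA, against 5.79, 5.81 and 4.17 in whole animals, adjusted p = 0.282).

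Of 4 receptors of responses to toxins, pathogens, mitochondrial stress and low oxygen, limma called 0, with a median difference of -0.10. Before adjustment, 1 was higher and 1 lower (p under 0.05). nhr-86, an intestinal receptor of the innate immune response, read 3.94, 4.09 and 3.89 in the PVD and OLL RNA and 4.61, 4.42 and 4.42 in whole animals. These groups did not overlap, with a difference of -0.51 ± 0.18 (adjusted p = 0.104), which was positive with centring on bioB and bioC. Under the other 3 scalings it was called lower, at adjusted p = 0.0467 with median centring, 0.0363 after quantile normalization and 0.0296 after cyclic loess. nhr-45, which acts in surveillance of mitochondria, differed by 0.60 ± 0.21 (adjusted p = 0.1) on the probe set used here and rose by 1.54 on its other probe set (adjusted p = 0.00844). nhr-57, a gene induced by low oxygen, differed by -0.35 ± 0.33 (adjusted p = 0.486).

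Developmental receptors were mixed, with 1 rise (nhr-6) and 1 fall (nhr-2) among 6 and a median difference of 0.14. nhr-40, which acts in muscle development and movement, read 4.93, 4.99 and 5.12 on the PVD and OLL arrays, against 4.59, 3.92 and 3.50 on the whole animal arrays. Its difference of 1.01 ± 0.29 was not called (adjusted p = 0.0579), while its other probe set rose by 2.06 (adjusted p = 0.0227). nhr-31, needed for the tubule of the excretory cell, differed by 0.53 ± 0.25 (adjusted p = 0.192) and nhr-60, which acts in embryonic seam cells, by -0.66 ± 0.30 (adjusted p = 0.175). In both the arrays of the groups overlapped.

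**Figure D3:**
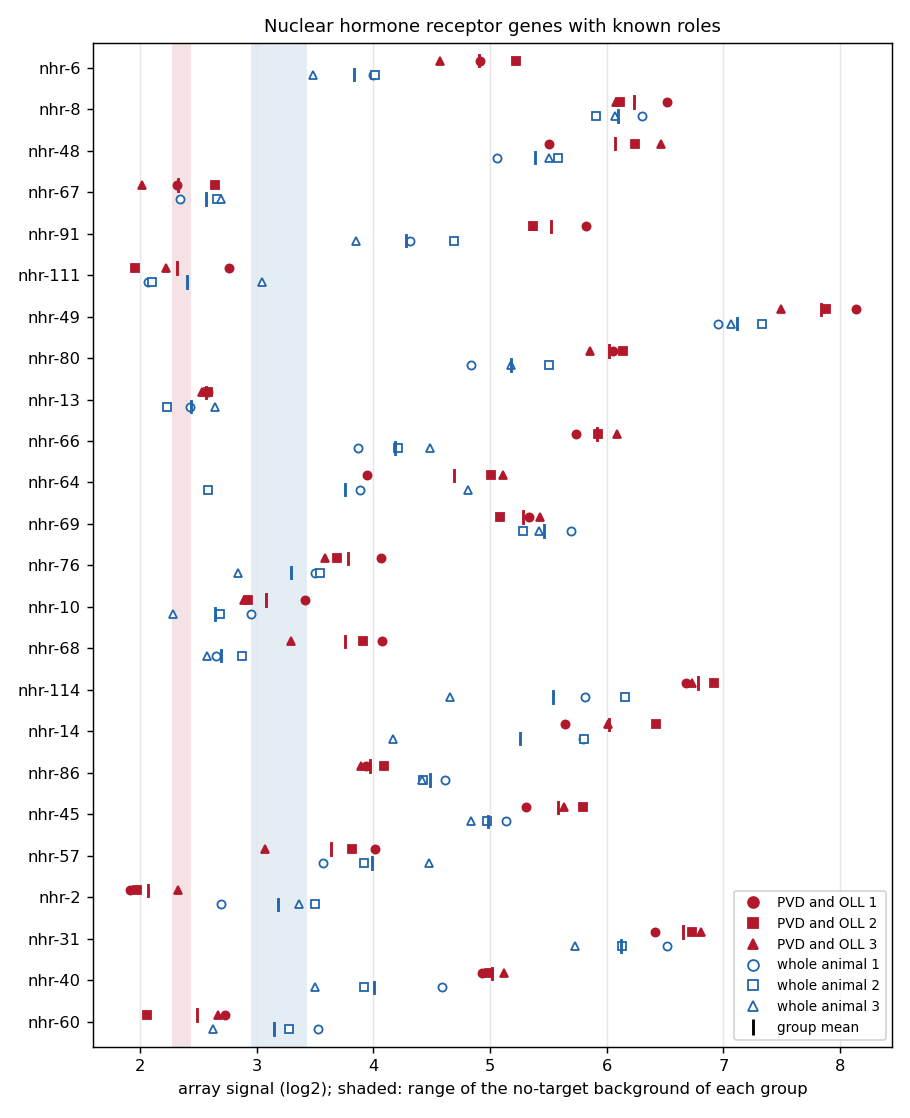
Signal on each array (log2) for the receptor genes with known roles, in the order of the role lists, drawn as filled red symbols for the PVD and OLL arrays and open blue symbols for the whole animal arrays, with a bar at each group mean and the no-target background of each group shaded. The PVD and OLL arrays lie wholly to the right for nhr-66, nhr-91, nhr-6 and nhr-68, which rose, and for nhr-49, nhr-80, nhr-76, nhr-114, nhr-45 and nhr-40, which were not called. They lie wholly to the left for nhr-2, which fell, and for nhr-86, which was not called, and the groups overlap in the other genes.

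Other bright or strongly differing receptor genes were not called. nhr-97 read 7.61, 7.16 and 7.48 in the PVD and OLL RNA and 8.17, 8.01 and 7.80 in whole animals, a difference of -0.58 ± 0.21 (adjusted p = 0.107), and its other probe set differed by 0.09. nhr-46 read 7.05, 6.82 and 6.18 in the PVD and OLL RNA and 6.15, 5.34 and 3.53 in whole animals, with whole animal replicate 3 far the lowest (1.68 ± 0.62, adjusted p = 0.11), and its other probe set rose by 1.13 (adjusted p = 0.0468). nhr-183 read 4.89, 5.03 and 5.54 in the PVD and OLL RNA and 4.67, 4.25 and 2.83 in whole animals, again lowest on that array (1.24 ± 0.46, adjusted p = 0.113). nhr-137 was split within the PVD and OLL group instead, at 6.10, 6.49 and 4.30, against 3.91, 4.78 and 3.48 in whole animals (1.58 ± 0.59, adjusted p = 0.114). Without PVD and OLL replicate 3 that gene was called, at an adjusted p of 0.021. nhr-15 differed by 1.11 ± 0.35 (adjusted p = 0.0724). Across the family, 20 of the 250 genes on whole animal replicate 3 lay more than 1 from the mean of the other arrays of the group, 11 above and 9 below (4.4% and 3.6%, against 7.32% and 4.34% of all genes). On PVD and OLL replicate 3, 5 lay above and 9 below (2.0% and 3.6%, against 3.46% and 5.67% of all genes).

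Nuclear hormone receptor genes often lie next to each other, and the RefSeq table (WBcel235) was used to find runs in which no other protein-coding gene or pseudogene starts between them. There were 36 runs with at least 2 measured members, and these held 113 of the 250 genes. Genes in runs rose about as often as the rest, with 16 of 113 (14.2%) against 20 of 137 outside runs (14.6%). At least 1 gene rose in 12 runs and at least 2 in 3 runs, and there were 0 runs in which every measured gene rose. The run of 5 genes in the order nhr-123, nhr-98, nhr-203, nhr-202 and nhr-201 held the rises of nhr-98, nhr-202 and nhr-201. Its other members were nhr-203, at 4.71, 4.70 and 4.43 in the PVD and OLL RNA and 3.72, 3.63 and 4.44 in whole animals (0.68 ± 0.26, adjusted p = 0.123), and nhr-123 (-0.31 ± 0.47, adjusted p = 0.666). In the run of nhr-179, nhr-117, nhr-110, nhr-237 and nhr-238 the genes nhr-179 and nhr-110 rose, nhr-237 (0.32 ± 0.23) and nhr-238 (0.60 ± 0.30) were not called, and nhr-117 was not analysed here. In a run of 7, nhr-107 rose beside nhr-162 (-0.15 ± 0.18) and nhr-42 (0.34 ± 0.23), and nhr-161 at the other end, not above background in whole animals, also rose (adjusted p = 0.0323, lost in 5 of 6 runs with an array left out). Of the 36 runs 13 held both called and uncalled genes, and in 23 no measured gene was called. In these runs nhr-110 and nhr-107 rose on probe sets ending in _s_at. Their other probe sets differed by 0.31 and -0.29 (adjusted p = 0.335 and 0.45). No fold is given for nhr-161. How far probes of such related genes cross-hybridise was not tested.

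**Figure D4:**
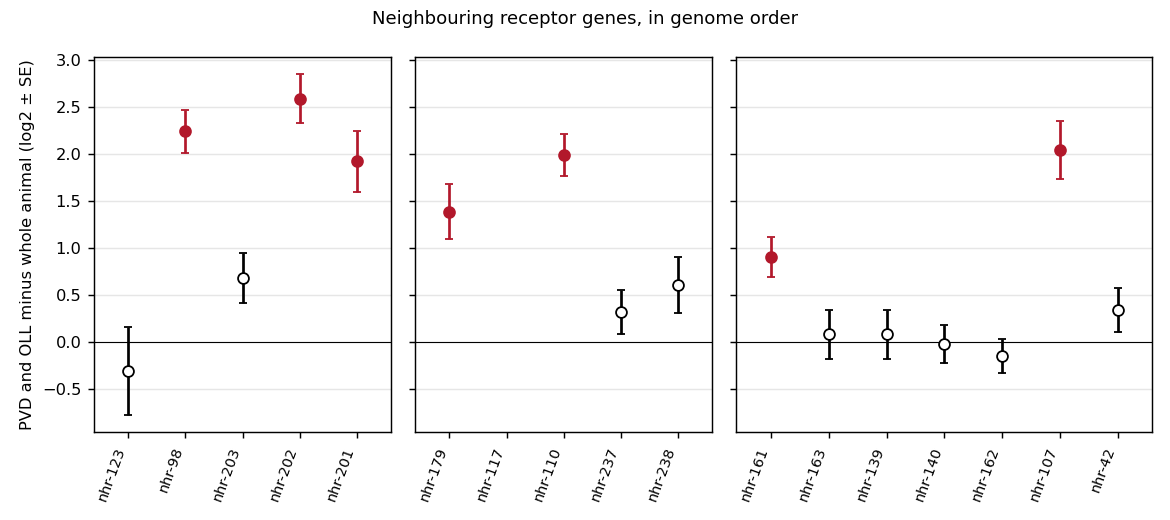
Difference between groups (PVD and OLL minus whole animal, log2, bars ± SE, n = 3 arrays per group) for the 3 runs of neighbouring receptor genes with at least 2 rises, in genome order. Red filled points rose, open points were not called and nhr-117 has no point. The points of nhr-110 and nhr-107 come from probe sets ending in _s_at. nhr-98, nhr-202 and nhr-201 lie between 1.92 and 2.58, and nhr-203 between them at 0.68.

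Nuclear receptors with other names and genes that work with the family were set beside it. Of 5 such receptors 1 rose, daf-12, the receptor for dafachronic acid, with means of 7.75 in the PVD and OLL RNA and 6.05 in whole animals (1.70 ± 0.43, adjusted p = 0.0417, lost in 5 of 6 runs with an array left out). unc-55 and odr-7, receptors that specify neuron identity, were below background on every array of both groups (differences of -0.04 and -0.21, not called). Of 4 coregulators cbp-1, an acetyltransferase gene, rose (1.12 ± 0.29, adjusted p = 0.0435, lost in 4 runs). The DAF-12 corepressor gene din-1 differed by 2.0 ± 0.58 (adjusted p = 0.0599). Of 8 genes for making the DAF-12 ligand and supplying sterol, 1 rose, emb-8, which encodes a cytochrome P450 reductase (1.06 ± 0.25, adjusted p = 0.0345, lost in 4 runs). Of 8 fat metabolism targets of NHR-49, NHR-80 and MDT-15, limma called 0 in either direction, with a median difference of 0.18 and with 2 higher and 0 lower before adjustment (p under 0.05). hacd-1 among them just missed the threshold (1.23 ± 0.33, adjusted p = 0.0504). Of 5 propionate breakdown genes 0 rose and hach-1 fell by 0.87 ± 0.17 (adjusted p = 0.0201, lost in 4 runs, and positive with centring on bioB and bioC). Of 5 methionine cycle genes 2 rose, the S-adenosylmethionine synthetase gene sams-1 (1.94 ± 0.50, adjusted p = 0.0425, lost in 5 runs) and mthf-1 (1.31 ± 0.35, adjusted p = 0.0457, lost in 6 runs).

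Markers of several cell types moved between the groups, and their part in the receptor results was not tested. Of 12 markers of PVD and OLL 8 rose and 0 fell, with summed linear signals of 1268 to 1394 on the PVD and OLL arrays and 125 to 171 on the whole animal arrays. Such sums are set mainly by the brightest genes of a list and do not measure tissue content. In the PVD and OLL RNA these were deg-3 here (mean log2 signal 9.86), sqt-3 and dpy-13 for hypodermis (11.59 and 12.14) and asp-1 for intestine (10.94). Of 10 pan-neuronal markers 5 rose and 0 fell, with sums of 1875 to 3509 in the PVD and OLL RNA and 1154 to 1291 in whole animals. Of 9 measured hypodermal markers 4 rose and 0 fell. Among the rises were elt-1 (1.46 ± 0.26) and bli-1 (2.15 ± 0.55), with calls lost in 2 and 4 of 6 runs with an array left out. elt-1 exceeded background on 1 whole animal array. dpy-5, sqt-3 and dpy-13 differed by -0.54, -0.49 and -0.04 and were not called. The hypodermal sums of 7948 to 10813 in the PVD and OLL RNA and 9366 to 11430 in whole animals overlapped. Of 12 intestinal markers pgp-1 rose (2.09 ± 0.40) and vit-2 and vit-6, which encode yolk proteins, fell (-3.09 ± 0.79 and -3.66 ± 0.88). The calls of pgp-1, vit-2 and vit-6 were lost in 2, 5 and 4 runs with an array left out. The intestinal sums overlapped, at 3409 to 3681 in the PVD and OLL RNA and 2911 to 4286 in whole animals, and the intestinal regulator elt-2 differed by 0.55 ± 0.31 (adjusted p = 0.251). Of 8 body wall muscle markers 2 rose and 1 fell, of 6 pharyngeal markers 1 rose, of 6 glial markers 2 rose, and of 8 germline markers 1 fell. Sums in the PVD and OLL RNA and in whole animals were 7956 to 10056 and 6469 to 9884 for muscle, 866 to 1107 and 464 to 655 for pharynx, 418 to 519 and 162 to 291 for glia, and 506 to 609 and 656 to 814 for germline. Every marker of these lists exceeded the background on at least 1 PVD and OLL array. Between 71.5% and 75.8% of all genes exceeded it on each of these arrays, a stricter measure than at least 1 array.

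**Figure D5:**
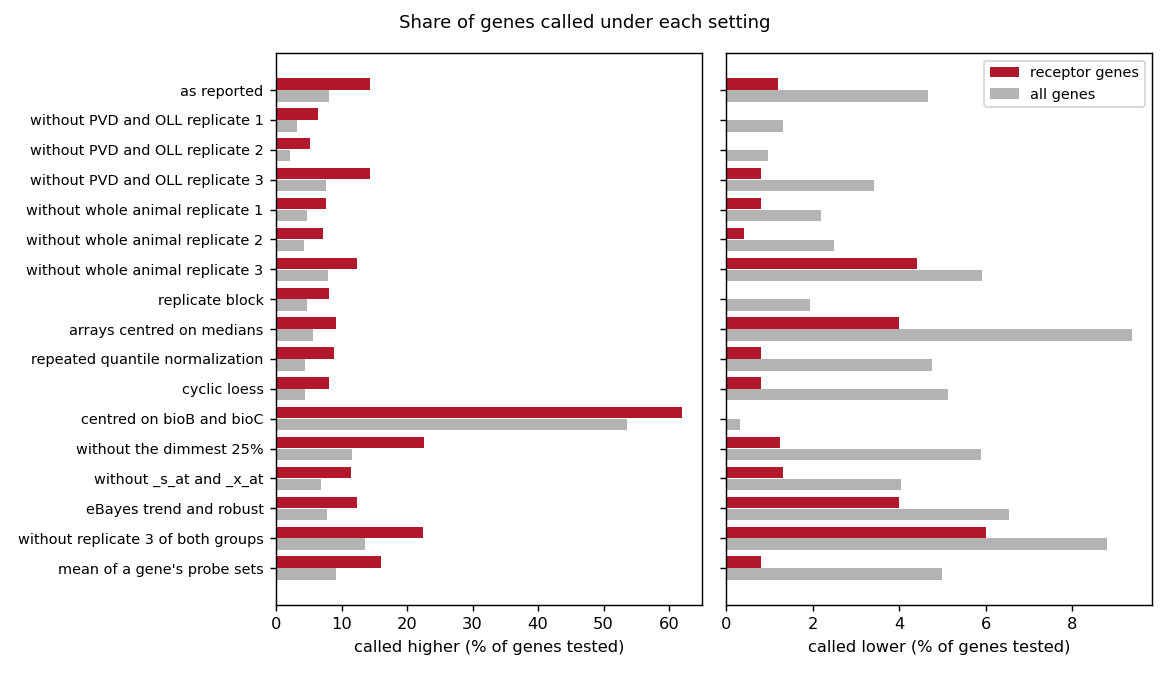
Share of genes called higher (left) and lower (right) in the PVD and OLL RNA, in percent of the genes tested, for the receptor genes (red) and for all genes (grey) under the reported setting and each alternative. The receptor genes have the longer bar on the left in every setting and the shorter one on the right, with 14.4% against 8.10% higher and 1.2% against 4.66% lower as reported.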

How the data were processed

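Each array gave 1 value per probe set, made by the authors with RMA, per the submitters' processing notes. The sources used here do not name the program that ran RMA. Because the deposited signals lay between 1.21 and 13.9 they were read as log2, a base that no label states. Of 22625 probe sets, 77 controls were left out. Gene names came from the array annotation, updated through RefSeq (WBcel235, names and neighbours only). 20766 tested probe sets had 1 gene name, 887 several and 895 none listed. No sample column was unused. Differences were fitted with limma 3.58.1 (lmFit, eBayes) in R 4.3.3 on all 6 arrays with no covariate, and the code was tested on simulated data. The number of arrays limits the precision. Where every array of a group lay below the background, the fold is given as "at least", with the mean of the brighter group set against the background level of each dim array or the gene's own value if higher, and a bound under 1 was left out.

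The members, the lists and the tests were chosen with earlier results of these data known. Named are up to 20 called genes with the largest differences in each direction, the measured genes of the role lists, the 5 with the highest mean signal in each group, the 5 largest differences that missed the test, and up to 3 called genes from each related list. nhr-203, nhr-123, nhr-237, nhr-238, nhr-161, nhr-162 and nhr-42 are named as neighbours, and some marker genes as examples, chosen after their values were seen. Alternatives were leaving out arrays, a replicate block, other scalings, filters on dim or cross-matching probe sets, a variance trend and averaged probe sets.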

Additional observations from a re-analysis of the deposited data

How the results depend on the processing

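Single arrays set much of the count of calls. With 1 array left out, between 13 and 36 receptor genes rose and between 0 and 11 fell, and over all probe sets between 577 and 2017 rose and between 208 and 1222 fell, against 2099 and 964 with all arrays. Without replicate 3 of both groups the receptor counts were 56 and 15 and those over all probe sets 3300 and 1842. The labels link samples of the groups only by replicate number. Same-numbered arrays deviated from their group means with correlations of -0.05, -0.07 and -0.10, and different-numbered arrays with correlations of -0.06 to 0.08. With 3 arrays per group such values cannot tell whether same-numbered samples were prepared together. With the replicate block 20 receptor genes rose (8.0%, against 4.63% of all genes) and 0 fell (against 1.93%), and 1224 and 405 probe sets did. Among the named genes, nhr-84, nhr-179 and nhr-91 lost their call with it, at adjusted p = 0.0554, 0.0613 and 0.0534, as did nhr-142, nhr-213, nhr-109, nhr-190 and nhr-68. Receptor counts were 23 and 10 with arrays centred on medians (1952 probe sets lower), 22 rises after repeated quantile normalization (1192 probe sets higher), 20 after cyclic loess (1195) and 155 and 0 with centring on bioB and bioC (12752 probe sets higher and 66 lower). With trend and robust in eBayes 10 receptor genes fell (4.0%, against 6.53% of all genes). The falls were 4.0% against 9.38% with median centring, 4.4% against 5.91% without whole animal replicate 3 and 6.0% against 8.79% without replicate 3 of both groups. With _s_at and _x_at probe sets left out 1186 probe sets rose and 600 fell. Of the 228 receptor genes then tested 26 rose (11.4%, against 6.91% of all genes) and 3 fell (1.32%, against 4.03%). The other 10 of the 36 rises lost their call or had no such probe set. These scalings shifted the median of all probe sets by -0.20, 0.01, 0.02 and 1.24. The median difference of the receptor genes, 0.10, was between 0.0891 and 0.146 with 1 array left out, -0.10 with median centring, 0.15 after quantile normalization, 0.21 after cyclic loess, 1.34 on bioB and bioC and 0.56 without the dimmest 25% of probe sets. The median of all genes was -0.27 with median centring, -0.06 after quantile normalization and -0.04 after cyclic loess. It was 1.17 on bioB and bioC and 0.11 without the dimmest 25%. nhr-107 reversed to -0.29 without _s_at and _x_at probe sets, because its other probe set was then used. On bioB and bioC nhr-2, nhr-288 and nhr-81 reversed to 0.13, 0.22 and 0.52 and nhr-111 to 1.15, because that centring raised all differences. Signals near background limit what can be said of the 61 genes that never exceeded it.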
